A study of Mus musculus with 29 samples.

Results

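The 6 genes described here encode signals that pass between muscle and other cells, and 1 of their receptors, and were followed in the aging tibialis anterior (TA). They were taken from the table by symbol, and no threshold on their values was applied: Ostn, Apln, its receptor Aplnr, Fndc5, Metrnl and Bdnf, which makes 6 of the 22537 genes in the count table. Poly-A RNA of the whole TA, the fast muscle at the front of the shin, was sequenced from male C57BL/6 mice of an aging colony, 7 at 6m, 7 at 24m and 8 at 28m. The labels name no transgene and no treatment, and call the ages adult, older adult and elderly, the last being 28 months or older. The 24m mice and the young mice made up the first run. The second consisted of the 28m mice and of libraries made anew from those 7 young animals, so there were 29 libraries. Each age was compared with the 6m libraries of its own run, and since both comparisons rest on the same 7 young mice, their values are given side by side and are not independent of each other.

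Skeletal muscle is known to release peptides and proteins into the blood, called myokines, which act on heart, bone, fat, vessels and nerve. Ostn encodes osteocrin, also named musclin, a small peptide that resembles the natriuretic peptides and binds their clearance receptor. Apln encodes apelin, whose receptor is the G-protein-coupled product of Aplnr, Fndc5 the membrane protein from which irisin is cleaved, Metrnl the cytokine meteorin-like, and Bdnf the neurotrophin that signals through the tyrosine kinase receptor encoded by Ntrk2.

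Of the 6 genes, Ostn rose at both ages, although its call at 24m was lost with a trend on gene length and GC content removed (adjusted p 0.0776) and in 4 of 14 fits that left out 1 library, and its 28m log2 value moved from 1.26 to 0.62 with that trend removed. None of the other 5 genes passed the test in either comparison. Aplnr was lower and Apln higher on average in old mice, without passing the test, and Fndc5, by far the most abundant, had log2 differences of -0.05 at 28m and -0.24 at 24m that did not pass either. Thus 1 of 6 members was called at 28m, where 47.3% of the 12994 genes tested were called (24.3% higher and 22.9% lower), and 1 of 6 at 24m, where 0.084% of 13103 were called (0.0611% higher and 0.0229% lower). The median log2 fold change of the 6 at 28m was 0.31, beside 0.01 over all genes tested.

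Total counts per library were between 17633475 and 33499162, and levels are given as CPM, counts relative to the scaled library size. The sums of 10 fast-fibre markers at 6m, between 163500 and 187100 CPM, against slow-fibre sums between 104 and 160 CPM, fit the labelled muscle. Some markers of several cell types were called at 28m, where 47.3% of all genes tested were called, 24.3% higher and 22.9% lower. Counts of markers near those shares are not read as results about a cell type. In bulk RNA, fewer cells of a type and less RNA per cell cannot be told apart. At 28m 7 of 12 endothelial markers fell and 2 rose, and 6 of 10 fibroblast markers fell and none rose. Of 14 genes of the denervation response 7 rose and 1 fell, and of 8 adipocyte markers 3 rose and none fell. Of 10 fast-fibre markers 5 rose and 1 fell, of 9 slow-fibre markers 4 rose and 1 fell, and of 5 satellite-cell markers 2 fell and none rose. The 2 libraries of a 6m mouse differed most for replicate 4, with an SD of the log2 difference over genes of 0.617 against 0.237 to 0.282 for the other mice.

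**Figure D1:**
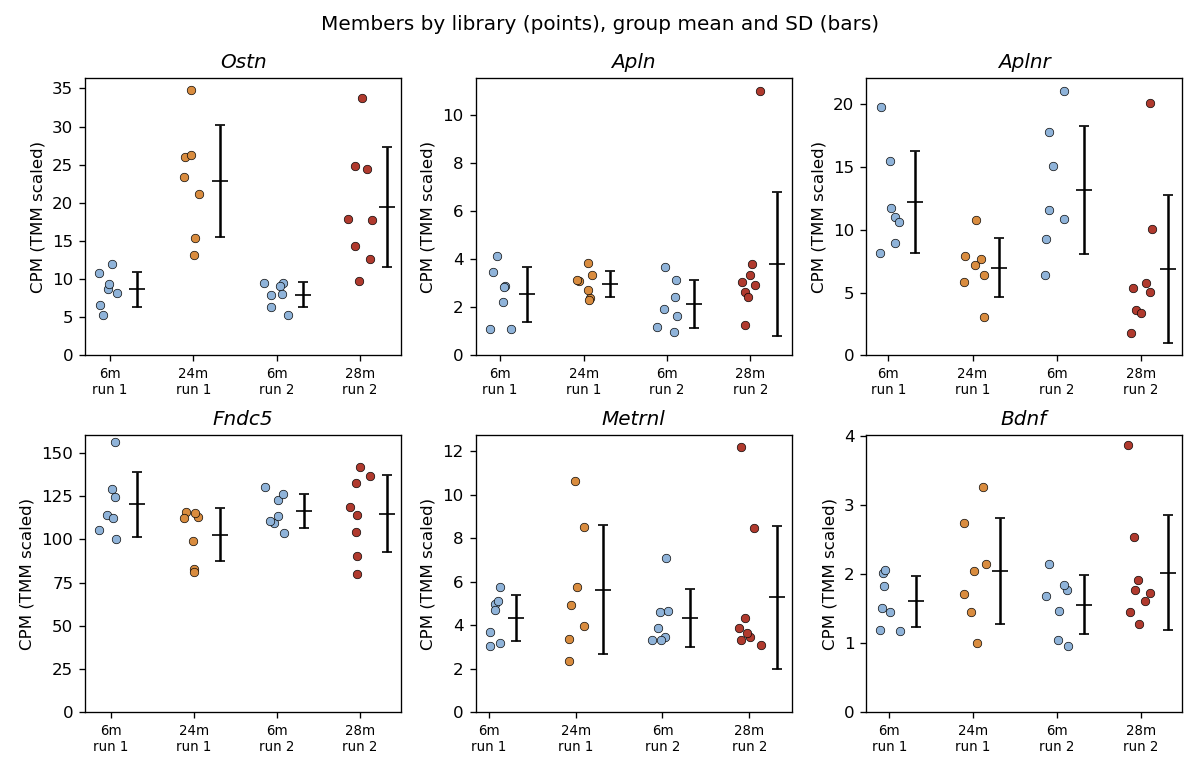
Levels of the 6 genes in CPM (y axes start at 0), with 1 point for each library and bars for the group mean and SD, for the 6m and 24m libraries of run 1 (7 each) and the 6m (7) and 28m (8) libraries of run 2. The old mice lie above the 6m mice of their run for Ostn without overlap, whereas a single 28m mouse, replicate 5, stands at 10.99 CPM of Apln and 20.1 CPM of Aplnr.

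Per kilobase of exon, the order of the levels at 6m in the second run was Fndc5 with a mean of 42.2 CPM per kb, Ostn with 5.60, Aplnr with 3.55, Metrnl with 2.74, Apln with 0.676 and Bdnf with 0.251. Fndc5 lay above all others without overlap, as Metrnl did above Apln. The ranges of Ostn and Aplnr, of Aplnr and Metrnl, and of Apln and Bdnf overlapped over the 7 mice, so these neighbours were not separated beyond their spread. At 24m Ostn averaged 16.1 CPM per kb and at 28m 13.7, still next after Fndc5. Its range overlapped that of Metrnl at 28m and not at 24m, and the ranges of Metrnl and Aplnr overlapped in both old groups, so their order was not separated.

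Ostn lies on chromosome 16 (GRCm38 16:27307489-27351212, plus strand), and the end of its coding sequence, codons 51 to 130, is shown because the gene carries the clearest age difference of the 6. The capitals mark both in-frame stretches that encode the motif shared with the natriuretic peptides, a phenylalanine, a glycine, any 3 residues, an aspartate and an arginine; the sequence is the GENCODE transcript read from GRCm38, with the stop codon left out.
Ostn: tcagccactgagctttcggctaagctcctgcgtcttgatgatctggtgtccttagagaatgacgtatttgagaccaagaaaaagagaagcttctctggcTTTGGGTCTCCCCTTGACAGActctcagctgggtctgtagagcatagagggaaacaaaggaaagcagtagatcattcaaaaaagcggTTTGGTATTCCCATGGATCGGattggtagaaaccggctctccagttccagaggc
Of 21733 coding genes searched, 61 (0.281%) held the motif at least once. Ostn held 2 copies, and Nppa, Nppb and Nppc, the genes of the cardiac and C-type natriuretic peptides, held 1 each.

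At 6m in the second run, Ostn ranged from 5.29 to 9.50 CPM with a median of 8.10, and at 28m from 9.81 to 33.7 CPM with a median of 17.8. All 8 of the 28m mice lay above all 7 of the 6m mice, and the lowest old mouse, replicate 6, was just over the highest young one. The separation held for the second-run libraries, since the first-run libraries of young replicates 1 and 4 had 10.8 and 11.95 CPM, above that mouse. Groups of these sizes did not overlap upward for 6.21% of the genes tested. The means were 7.97 ± 1.63 CPM (SD, n = 7) and 19.4 ± 7.83 CPM (SD, n = 8), and Ostn rose 2.39-fold, a log2 fold change of 1.26 ± 0.23 (SE) with an interval of 0.78 to 1.74 and an adjusted p of 0.000891 in edgeR. With a trend on gene length and GC content removed the log2 value was 0.62. By p it was gene 549 of 12994. The counts behind these values were between 126 and 210 at 6m and between 231 and 878 at 28m.

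In the first run Ostn ranged from 5.29 to 11.95 CPM with a median of 8.66 at 6m, and from 13.1 to 34.8 CPM with a median of 23.4 at 24m. Again all 7 old mice lay above all 7 young ones, which held upward for 0.359% of the genes tested. The means were 8.69 ± 2.29 CPM (SD, n = 7) and 22.9 ± 7.30 CPM (SD, n = 7), with a log2 fold change of 1.39 ± 0.22 (SE) and an adjusted p of 0.0172 in edgeR (interval 0.93 to 1.85). Ostn was gene 8 of 13103 by p. The effects at the 2 ages differed by -0.11 ± 0.33 (SE) on the log2 scale, interval -0.78 to 0.56, with an adjusted p of 0.889. The second libraries of the 6m mice differed from the first by -0.11 ± 0.17 (SE), in a fit that did not pair them by mouse.

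The size of the Ostn difference changed when trends with gene length and GC content, removed together, were taken into account. Its exons cover 1423 bases, against a median of 3504 over all matched genes, and at 28m log2 fold changes fell with length across genes, with a Spearman correlation of -0.539 over 12870 genes, which are not independent replicates; at 24m the correlation was -0.27. With a trend on length and GC content removed from each library, the adjusted p of Ostn at 28m was 0.0142, and at 24m its log2 fold change was 1.12 with an adjusted p of 0.0776, which missed the threshold. At 24m the call was also lost without the 6m replicate 2, 3, 5 or 6, with adjusted p between 0.05 and 0.0662 and log2 fold changes between 1.30 and 1.39. The strand setting of the counting is not stated, and an antisense gene, Gm32312, overlaps exons of Ostn and has no row in the table.

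Fibre, denervation and adipocyte markers were set beside Ostn in each library, and their part in its rise was not tested. The summed fast-fibre markers were between 167900 and 187000 CPM at 6m in the second run and between 159300 and 195200 CPM at 28m. The 28m mouse with the least Ostn, replicate 6, had the highest denervation sum of its group, 732 CPM. Among the 24m mice, replicate 5 had the least Ostn and replicate 4 the most, and both stood out in denervation genes with 1275 and 1057 CPM against 122 to 397 CPM in the others. The summed adipocyte markers did not overlap between ages either, from 1623 to 3296 CPM at 6m against 4627 to 7609 CPM at 28m, and from 1610 to 3979 CPM against 4425 to 7573 CPM at 24m. The median log2 fold change of the 8 markers was 1.01 at 28m and 0.05 at 24m, where none was called. A CPM sum follows its most abundant markers. The separation of these sums is thus not read as a change in adipocytes, and the part of each marker in it was not tested. Car3, a member of that list which slow fibres are known to express too, had log2 fold changes of 1.32 at 28m (adjusted p 0.000204) and 1.07 at 24m (adjusted p 0.0811), whereas Adipoq, the adiponectin gene, had 1.09 (adjusted p 0.0974) and -0.02 (adjusted p 0.98).

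After the mean of each group was subtracted, Ostn varied over the 29 libraries with Fndc5 (r = 0.794). For a marker list, r was taken with the mean log2 CPM of its markers after the same subtraction, and not with their CPM sum. Ostn varied with the fast-fibre mean (r = 0.624), against the satellite-cell mean (r = -0.569) and against the denervation mean (r = -0.535). Its r with the adipocyte mean was 0.339. The libraries of the 6m mice come in pairs from the same animals, so these are descriptions. The 3 genes most like Ostn on this measure, among 12000 compared, were 2610528E23Rik (0.831), Pccb (0.831), a subunit of the mitochondrial propionyl-CoA carboxylase, and Pxmp2 (0.827), a peroxisomal membrane protein.

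The receptors of the natriuretic peptides were measured well above the filter, and their own ligands were not. Nppa, Nppb and Nppc had at most 29, 8 and 16 counts in a library and were not tested in either comparison. Of the 12 genes of the natriuretic peptide system 8 were tested at 28m, where 5 fell and none rose, beside 22.9% of all genes tested that fell and 24.3% that rose. The median of the 8 log2 fold changes was -0.41. At 24m none was called, as held for every list of pathway or marker genes examined.

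Npr3, the clearance receptor to which osteocrin binds, had 13.97 to 57.6 CPM at 6m and 18.6 to 38.1 CPM at 28m, and its log2 fold change was -0.03 ± 0.28 (SE), adjusted p 0.948. Npr1, the guanylyl cyclase receptor of the atrial and brain peptides, had 22.4 to 27.7 CPM (median 25.8) at 6m and 14.2 to 21.6 CPM (median 18.4) at 28m. All 8 of the 28m mice were below all 6m mice for Npr1, as was true of 6.18% of genes, and it fell by 0.54 ± 0.09 (SE) on the log2 scale with an adjusted p of 0.000648, and by 0.35 with the length and GC trend removed (adjusted p 0.00348). Npr2, the receptor of the C-type peptide, fell by 0.41 ± 0.12 (SE) with an adjusted p of 0.0126, and 4 of 8 mice were below all 6m mice.

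Mme, which encodes neprilysin, a membrane peptidase that breaks down natriuretic peptides among others, had the largest difference of the list. Its level was 3.67 to 5.62 CPM at 6m and 1.04 to 2.84 CPM at 28m, without overlap. Mme fell by 1.47 ± 0.21 (SE) on the log2 scale with an adjusted p of 0.000304, and by 1.13 with the length and GC trend removed (adjusted p 0.000347). Furin, a proprotein convertase, fell by 0.52 with an adjusted p of 0.0223, and Pde5a, a phosphodiesterase that degrades cyclic GMP, fell by 0.36 with an adjusted p of 0.0282. Neither call stood with the length and GC trend removed, where the log2 fold changes were -0.10 for Furin (adjusted p 0.517) and 0.04 for Pde5a (adjusted p 0.828), and Pde5a thus turned direction. At 24m the differences were -0.32 for Npr1 (adjusted p 0.481), 0.13 for Npr3 (adjusted p 0.891) and -0.47 for Mme (adjusted p 0.476).

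**Figure D2:**
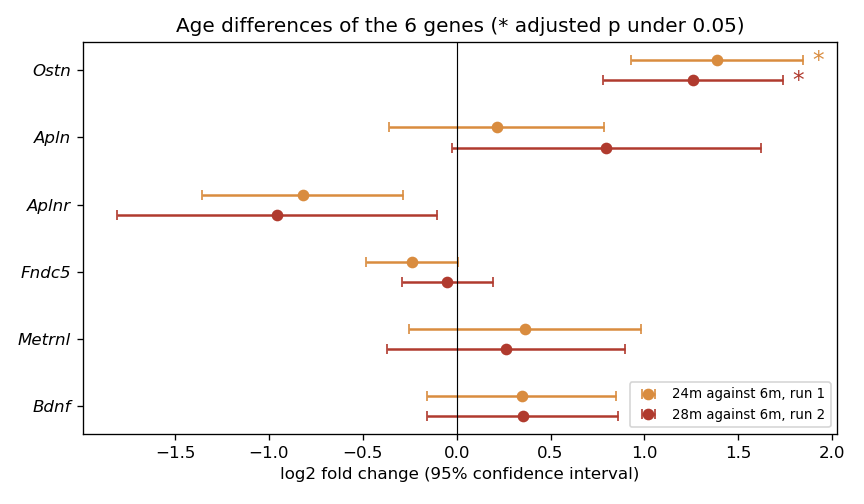
Log2 fold changes (x axis) of the 6 genes with 95% confidence intervals from edgeR, for 24m against 6m in run 1 and 28m against 6m in run 2, where 0 means no difference and stars mark an adjusted p under 0.05. Both stars belong to Ostn, at 1.39 and 1.26, and the Aplnr points lie at -0.82 and -0.96.

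Apln lies on the X chromosome (GRCm38 X:48025146-48034853, minus strand) and Aplnr on chromosome 2 (2:85136225-85139923, plus strand). The coding sequence of Apln is shown because the receptor's ligand is a short stretch at its end, and the capitals mark the last 13 codons, which encode the C-terminal apelin peptide; it is the GENCODE transcript read from GRCm38 along the gene's own strand, without the stop codon.
Apln: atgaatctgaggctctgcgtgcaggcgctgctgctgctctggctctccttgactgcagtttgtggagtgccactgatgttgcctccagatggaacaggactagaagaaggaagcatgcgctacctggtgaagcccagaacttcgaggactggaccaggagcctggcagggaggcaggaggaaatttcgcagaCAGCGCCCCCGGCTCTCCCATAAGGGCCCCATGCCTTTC
Its 231 bases encode 77 residues, against 130 for Ostn.

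Apln ranged from 0.96 to 3.65 CPM with a median of 1.91 at 6m in the second run, and from 1.28 to 10.99 CPM with a median of 2.98 at 28m. A single mouse, replicate 5, held the highest value, and the other 7 mice lay between 1.28 and 3.79 CPM, so that 2 of 8 exceeded all 6m mice. The means were 2.13 ± 0.999 CPM (SD, n = 7) and 3.80 ± 2.998 CPM (SD, n = 8), and the log2 fold change of 0.80 ± 0.39 (SE) had an interval of -0.03 to 1.62 and an adjusted p of 0.102. Without replicate 5 the log2 fold change of Apln was 0.35. Without 28m replicate 4, the mouse with the least Apln, it was 0.93 with an adjusted p of 0.0463.

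At 24m Apln ranged from 2.31 to 3.85 CPM with a median of 3.08, inside the 1.10 to 4.11 CPM of the 6m mice of the first run, whose median was 2.85. The groups overlapped throughout. The log2 fold change was 0.21 ± 0.27 (SE), interval -0.36 to 0.79, with an adjusted p of 0.727. It was 0.08 to 0.38 without 1 library at a time and 0.11 to 0.45 with other processing.

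The receptor gene moved the other way in its means. Aplnr ranged from 6.38 to 21.03 CPM with a median of 11.6 at 6m in the second run, and from 1.77 to 20.1 CPM with a median of 5.21 at 28m. In all, 6 of 8 old mice were below all 6m mice, but replicate 5 at 20.1 CPM was close to the highest young mouse and replicate 6 at 10.1 CPM lay among them. The means were 13.1 ± 5.10 CPM (SD, n = 7) and 6.89 ± 5.87 CPM (SD, n = 8). The log2 fold change was -0.96 ± 0.40 (SE) with an interval of -1.81 to -0.11 and an adjusted p of 0.06 in edgeR. This is close to the threshold, and it passed with DESeq2 (-0.95, adjusted p 0.0379), with limma-voom (-1.21, adjusted p 0.017) and with the dispersion estimated from all libraries (-0.93, adjusted p 0.0383). In 6 of 9 alternative settings it did not pass, with adjusted p up to 0.113. Leaving out replicate 5 made the Aplnr difference -1.41 with an adjusted p of 0.0042, and the threshold was also passed without 28m replicate 6 (adjusted p 0.0496) or 6m replicate 3 (adjusted p 0.0452). In 13 of 16 fits that left out a library it was not passed, with adjusted p up to 0.13.

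In the first run Aplnr ranged from 8.17 to 19.8 CPM with a median of 11 at 6m, and from 3.04 to 10.8 CPM with a median of 7.21 at 24m. In all, 6 of 7 old mice were below all young mice, and replicate 5 at 10.8 CPM lay among them. The log2 fold change was -0.82 ± 0.25 (SE), interval -1.35 to -0.29, with an adjusted p of 0.254 and 0.00499 before adjustment over the 13103 genes. The effects at the 2 ages differed by -0.12 ± 0.51 (SE) for Aplnr and by 0.61 ± 0.50 (SE) for Apln, with adjusted p of 0.925 and 0.584. Without 1 library at a time these values were -0.58 to 0.03 for Aplnr and 0.15 to 0.78 for Apln.

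Since apelin and its receptor are made by endothelial cells among others, both were divided by the geometric mean of 12 endothelial markers, all of them detected in every group. The summed level of these markers was 593 to 679 CPM at 6m in the second run and 403 to 532 CPM at 28m. Per endothelial marker RNA, Aplnr was lower by 0.88 on the log2 scale at 28m, with means of -2.66 ± 0.98 (SD, n = 8) and -1.79 ± 0.59 (SD, n = 7), in a two-sided exact permutation test with p = 0.062 and an adjusted p of 0.0827 over 4 such tests. At 24m it was lower by 0.64 (exact permutation p = 0.0373, adjusted 0.0746). For Apln the ratio was higher by 1.04 at 28m (exact permutation p = 0.023, adjusted 0.0746) and by 0.56 at 24m (exact permutation p = 0.157, adjusted 0.157). None of the 4 passed after adjustment.

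Apln and Aplnr varied together within groups, with an r of 0.662 over the 29 libraries. With the mean log2 CPM of the endothelial markers, not their sum, r was -0.07 for Apln and 0.30 for Aplnr. Both varied with the mean of the fibroblast markers, with an r of 0.691 and 0.579. For Aplnr the r was highest with the mean of Schwann cell and nerve markers, 0.654. The 28m replicate 5 had the highest fibroblast sum of its group, 1601 CPM against 558 to 1069 CPM in the other 7 mice, and the part of this in its apelin values was not tested. The genes most like Apln were Prnd (0.857), which encodes doppel, Islr (0.846) and Pgcp (0.819). Those most like Aplnr were Col15a1 (0.871), a basement-membrane collagen, Gm10516 (0.870) and Fscn1 (0.870), an actin-bundling protein.

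The ratio of ligand to receptor, looked at after the values were seen and given without a test, was lowest in the young mice. The log2 ratio of Apln to Aplnr ranged from -3.21 to -2.15 with a median of -2.60 at 6m in the second run, and from -1.94 to 0.77 with a median of -0.74 at 28m. In the first run it ranged from -3.02 to -1.95 with a median of -2.25 at 6m, and from -1.69 to 0.03 with a median of -1.36 at 24m. In both runs all old mice lay above all young ones, including 28m replicate 5, at -0.87, in which both genes were high. Of single genes, 12.4% did not overlap in either direction at 28m and 0.588% at 24m; the share of gene pairs whose ratios do not overlap was not computed, so nothing particular to this pair is read from it.

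**Figure D3:**
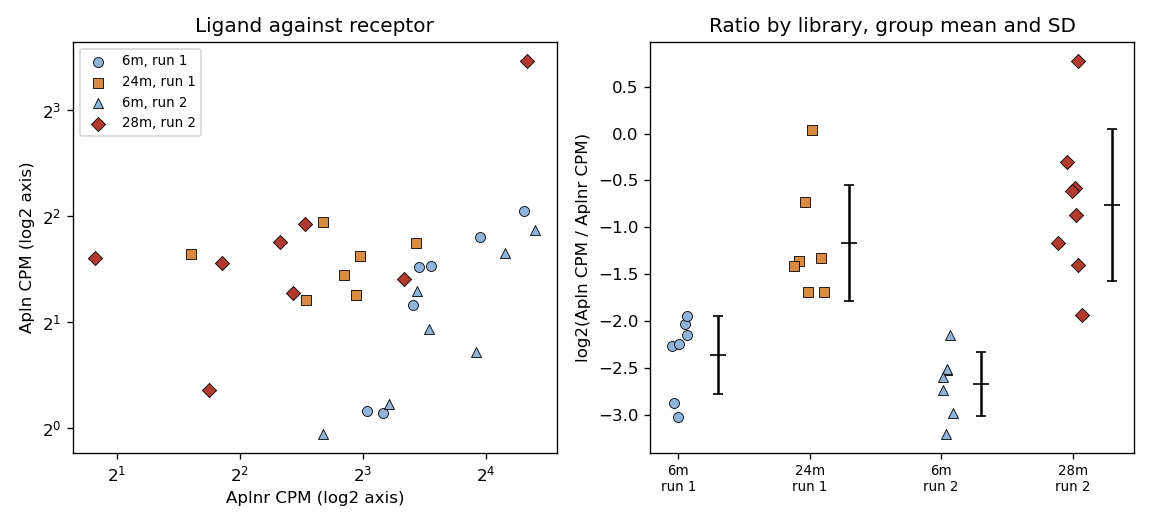
Left, Apln against Aplnr in CPM (log2 axes), 1 point for each of the 29 libraries; right, the log2 ratio of Apln to Aplnr by library with group mean and SD. On the left the groups overlap along both axes, and on the right the ratios of the young mice, at most -1.95, stay under those of the old mice, at least -1.94, though those 2 extremes come from different runs.

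Of the 8 tested genes that carry or limit apelin signals, 2 rose and 2 fell at 28m, near the 24.3% and 22.9% of all genes tested. The median of the 8 was -0.06 on the log2 scale. Arrb1, which encodes a beta-arrestin that turns off and internalizes such receptors, had 22.5 to 30.5 CPM at 6m and 12.7 to 24.4 CPM at 28m, and 7 of 8 old mice were below all young ones. It fell by 0.75 ± 0.13 (SE) with an adjusted p of 0.000669, and by 0.25 with an adjusted p of 0.0552 once the length and GC trend was removed. Its paralogue Arrb2 rose by 0.56 ± 0.20 (SE) with an adjusted p of 0.0322, and 6 of 8 mice were above all 6m mice; here removal of that trend gave 0.45 with an adjusted p of 0.0573. Gnai2, a subunit of the inhibitory G protein, rose by 0.29 with an adjusted p of 0.0232, and Furin, counted above as well, is the other gene of this list that fell.

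Fndc5 lies on chromosome 4 (GRCm38 4:129136999-129144593, plus strand) and was measured with 1936 to 3775 counts in every library, the most precise of the 6. It ranged from 103.5 to 130.1 CPM with a median of 113 at 6m in the second run, and from 79.9 to 142 CPM with a median of 117 at 28m. The old mice lay on both sides of the young ones, 3 above and 2 below all of them. The means were 117 ± 9.78 CPM (SD, n = 7) and 115 ± 22.2 CPM (SD, n = 8), and the log2 fold change of -0.05 ± 0.11 (SE), adjusted p 0.735, had an interval of -0.29 to 0.19. With other processing this value was between -0.20 and -0.01 and did not pass.

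In the first run Fndc5 ranged from 100.3 to 156 CPM with a median of 114 at 6m, and from 81.0 to 116 CPM with a median of 112 at 24m. Replicates 2 and 5 of the 24m mice, at 83.1 and 81.0 CPM, were below the others, and the groups overlapped. The log2 fold change was -0.24 ± 0.12 (SE), interval -0.48 to 0.01, with an adjusted p of 0.434. The same 24m replicates 2 and 5 had fast-fibre sums of 138900 and 118500 CPM, replicate 7, with 99.3 CPM of Fndc5, had 134900 CPM, and the other 4 mice had 167000 CPM or more.

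Within groups Fndc5 varied with the mean log2 CPM of the fast-fibre markers with an r of 0.73 over 29 libraries. The genes most like it were Ephx2 (0.888), a soluble epoxide hydrolase, Uqcrc1 (0.860), a core subunit of respiratory complex III, and Il15 (0.840), itself a cytokine that muscle releases. Of 9 tested genes around irisin and meteorin-like, 2 fell at 28m and none rose, with a median of -0.14. Among all genes tested at 28m, 22.9% fell and 24.3% rose. Ppargc1a, the transcriptional coactivator PGC-1alpha that is known to raise Fndc5 in muscle, had 49.4 to 64.2 CPM at 6m and 33.5 to 46.7 CPM at 28m, without overlap. Ppargc1a fell by 0.44 ± 0.09 (SE) with an adjusted p of 0.00126, and by 0.29 with the length and GC trend removed (adjusted p 0.0281). Adam10, a membrane protease, fell by 0.25 ± 0.08 (SE) with an adjusted p of 0.017. The paralogue Fndc4 had a log2 fold change of -0.36 ± 0.23 (SE) and an adjusted p of 0.209.

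Metrnl lies on chromosome 11 (GRCm38 11:121701544-121716306, plus strand). It ranged from 3.33 to 7.09 CPM with a median of 3.89 at 6m in the second run, and from 3.08 to 12.2 CPM with a median of 3.76 at 28m. A pair of 28m mice, replicate 7 at 12.2 CPM and replicate 5 at 8.45 CPM, were above all young mice, and the other 6 lay between 3.08 and 4.33 CPM. The means were 4.34 ± 1.34 CPM (SD, n = 7) and 5.30 ± 3.29 CPM (SD, n = 8), with a log2 fold change of 0.26 ± 0.30 (SE), interval -0.37 to 0.89, and an adjusted p of 0.485. The direction was not stable, since Metrnl was at -0.03 without replicate 7 and at -0.12 with the length and GC trend removed. It was at 0.14 without replicate 5 and at 0.44 without 6m replicate 2.

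In the first run Metrnl ranged from 3.04 to 5.79 CPM with a median of 4.72 at 6m, and from 2.36 to 10.6 CPM with a median of 4.93 at 24m. As at 28m, it was a pair of mice that stood high, replicate 4 at 10.6 CPM and replicate 2 at 8.51 CPM, and the groups overlapped. The log2 fold change was 0.36 ± 0.29 (SE), interval -0.25 to 0.98, with an adjusted p of 0.592, and without replicate 4 it was 0.15.

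The mice with high Metrnl also had high sums of fibroblast or immune markers. The 28m replicate 7 had an immune sum of 712 CPM, against 90.5 to 139 CPM in the other 28m mice, and replicate 5 the fibroblast sum of 1601 CPM given above. The 24m replicate 2 had an immune sum of 640 CPM and a fibroblast sum of 3071 CPM, the highest of its group, and replicate 4 had 311 and 1642 CPM. Across the 29 libraries, with group means subtracted, r was taken with the mean log2 CPM of a marker list and not with its sum. For Metrnl it was 0.823 with the fibroblast markers and 0.784 with the immune markers. The genes most like it were Anxa2 (0.923), an annexin, Dap (0.915) and Fstl1 (0.910), a secreted glycoprotein. Its paralogue Metrn, the neurotrophic factor meteorin, had means of 29.4 CPM at 6m and 37.2 CPM at 28m, a log2 fold change of 0.31 ± 0.14 (SE) and an adjusted p of 0.0861.

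Bdnf lies on chromosome 2 (GRCm38 2:109674700-109727007, plus strand) and was the least abundant of the 6, with 22 to 100 counts in a library. It ranged from 0.97 to 2.15 CPM with a median of 1.68 at 6m in the second run, and from 1.27 to 3.86 CPM with a median of 1.75 at 28m. Replicate 1 at 3.86 CPM and replicate 5 at 2.54 CPM exceeded all young mice, and the other 6 lay among them. The means were 1.56 ± 0.43 CPM (SD, n = 7) and 2.02 ± 0.83 CPM (SD, n = 8), with a log2 fold change of 0.35 ± 0.24 (SE), interval -0.16 to 0.86, and an adjusted p of 0.237. Without replicate 1 the Bdnf value was 0.15.

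At 24m Bdnf ranged from 1 to 3.25 CPM with a median of 2.04, beside 1.18 to 2.06 CPM with a median of 1.51 at 6m in the same run. The lowest and the highest value both belonged to old mice. The log2 fold change was 0.35 ± 0.24 (SE), interval -0.16 to 0.85, with an adjusted p of 0.543. Without 1 library at a time it was 0.21 to 0.46. An antisense gene, Gm45346, overlaps exons of Bdnf and has no row in the table. The mean log2 CPM of no marker list had an r above 0.362 with Bdnf. The genes most like Bdnf reached 0.741 (Slc22a4), 0.675 (Lrrc52) and 0.622 (Mgll), lower than the values of the other 5 genes.

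Of 10 tested genes that process, bind or resemble Bdnf, 4 fell at 28m and none rose, and the median of their log2 fold changes was -0.28. Over all genes tested at 28m, 22.9% fell and 24.3% rose, 47.3% together. Ntrk2, which encodes TrkB, the receptor of Bdnf, had 4.91 to 8.69 CPM (median 5.49) at 6m and 2.35 to 5.50 CPM (median 3.28) at 28m, and 7 of 8 old mice were below all young ones. Ntrk2 fell by 0.93 ± 0.18 (SE) with an adjusted p of 0.00122 in edgeR, but with the length and GC trend removed the value was -0.28 and the adjusted p 0.337.

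Sort1, which encodes sortilin, a receptor of the precursor forms of neurotrophins, fell by 0.69 ± 0.24 (SE) with an adjusted p of 0.0245. Sorcs2, of the same family, fell by 0.91 ± 0.27 (SE) with an adjusted p of 0.0118, and removal of the length and GC trend left -0.43 for Sort1 (adjusted p 0.0698) and -0.47 for Sorcs2 (adjusted p 0.0942). Mmp9, a metalloprotease known to cleave precursor Bdnf, fell by 1.23 ± 0.41 (SE) with an adjusted p of 0.0222, and kept its call with the trend removed (-1.22, adjusted p 0.0287). Ngfr, the p75 receptor, had a log2 fold change of 0.50 ± 0.30 (SE) and an adjusted p of 0.181. The log2 fold changes of Ntf3 and Ntf5, which encode neurotrophins as well, were 0.01 (adjusted p 0.983) and -0.08 (adjusted p 0.761). At 24m the differences were -0.23 for Ntrk2 (adjusted p 0.629), -0.18 for Sort1 (adjusted p 0.769), 0.16 for Sorcs2 (adjusted p 0.868), the opposite direction to 28m, and -0.54 for Mmp9 (adjusted p 0.453).

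The choice of young libraries bore on the 28m calls over all genes and on these partner genes with them. Of all genes tested 47.3% were called against the second-run young libraries and 23% against the first-run ones. The share was 36.9% against the first-run ones without replicate 4, an alternative chosen after seeing the data. With the first-run libraries of the young mice in place of the second-run ones, 8 of the 28m calls named above were lost, those of Npr2, Furin, Pde5a, Gnai2, Arrb2, Adam10, Sort1 and Sorcs2, at adjusted p between 0.0539 and 0.234. All 8 log2 differences kept their direction, at -0.35 for Npr2, -0.34 for Furin, -0.29 for Pde5a, 0.18 for Gnai2, 0.51 for Arrb2, -0.23 for Adam10, -0.56 for Sort1 and -0.69 for Sorcs2. Npr1 (adjusted p 0.00909), Mme (0.00239), Arrb1 (0.0135), Ppargc1a (0.0299), Ntrk2 (0.00908) and Mmp9 (0.0324) kept theirs.

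**Figure D4:**
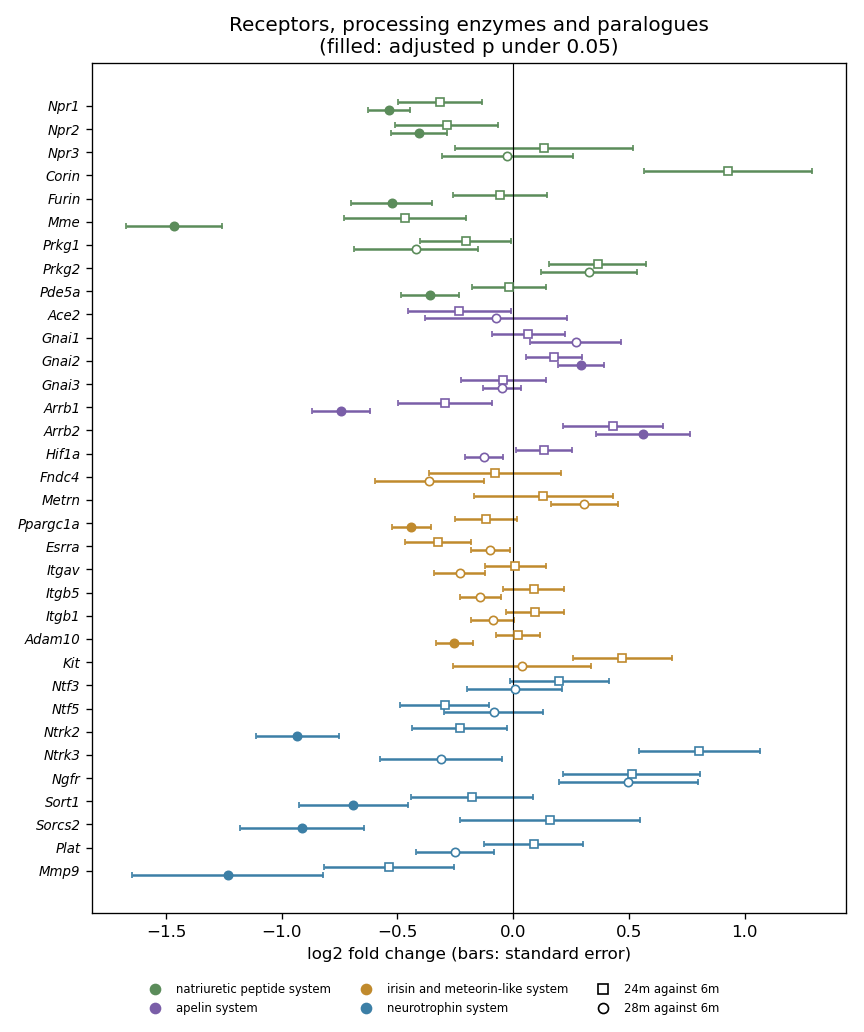
Log2 fold changes with SE (x axis) of tested receptors, processing enzymes, paralogues and signalling genes of the 4 systems, squares for 24m against 6m in run 1 and circles for 28m against 6m in run 2, filled where the adjusted p was under 0.05. The filled points are all 28m circles and most lie left of 0, with Mme at -1.47 and Mmp9 at -1.23 farthest, Arrb2 at 0.56 and Gnai2 at 0.29 right of it.

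None of the 6 genes differed between the ages in the test of the 2 effects against each other, with adjusted p between 0.576 and 0.985, and none of the 13455 genes tested did (1611 at an unadjusted p under 0.05). That count depended on 1 library: without 24m replicate 4 it was 1657, and the adjusted p of the 6 members were then between 0.308 and 0.968. The 6m libraries of the 2 runs gave no called gene of 12884 (357 at an unadjusted p under 0.05), and the adjusted p of the 6 members were at least 0.898. That fit did not pair the libraries by mouse. In the 2 alternative fits, of which 1 had the mouse as a block, the members' adjusted p were at least 0.498. The members' mean log2 differences between the libraries of the same mouse were between -0.24 and 0.07, with SDs from 0.11 for Fndc5 to 0.35 for Bdnf over the 7 mice.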

How the data were processed

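Reads were aligned by the authors with STAR 2.5.4b (mm10), and whole-number read counts for 22537 gene symbols in 29 libraries were deposited without normalization. The labels give each library's age and run. That the second-run 6m libraries came from the same mice was taken from the column names and the titles.

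Counts were tested with edgeR 4.0.16 in R 4.3.3 (filterByExpr, TMM within a comparison, quasi-likelihood F test, Benjamini-Hochberg adjustment over all genes tested, threshold 0.05), and the scripts were tested on simulated data. CPM values used TMM over the 29 libraries, and log2 CPM a prior count of 2. Marker levels were summed CPM. Correlations with a marker list used instead the mean log2 CPM of its markers that passed the filter, with group means subtracted. Ratios to endothelial markers were compared with exact permutation tests. The alternatives were DESeq2 1.42.0, limma-voom (limma 3.58.1), other scalings, filters, 6m libraries and dispersions, a length and GC trend removed, the mouse as a block, and leaving out each library. Exons and sequences came from GENCODE on GRCm38; the symbol matched for 20202 genes, a synonym for 1899 and neither for 436.

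The members, the lists and the tests were chosen with earlier results of these data known. Beside the members, the genes named are at most 6 called genes of a pathway list with the smallest adjusted p, their direct ligands, receptors and paralogues, and the 3 genes most like each member by Pearson r of log2 CPM with group means subtracted, among those with a mean of at least 1 CPM. The 6m libraries of the 2 runs are paired by mouse: correlations of their deviations from the group means were between 0.218 and 0.814. The labels give 7 mice at 24m and 8 at 28m, and the series' design text gives the reverse; the labels were used. Replicates are separate mice. At this depth, 3 counts in a library were taken as the floor. No protein sequence was used here. The result for 1 gene is not reported here.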

Additional observations from a re-analysis of the deposited data

Results flagged for a closer look

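In all, 3 values stood apart from the rest of their group by the gap to the nearest library relative to the whole range of the group, out of 24 groups looked at, of which chance alone marks about 1 in 20. The 28m replicate 5 had 10.99 CPM of Apln and 20.1 CPM of Aplnr, where the next highest 28m mice had 3.79 CPM and 10.1 CPM; it also had the most Ostn of its group (33.7 CPM) and, after 1 other mouse each, the most Metrnl (8.45 CPM) and Bdnf (2.54 CPM), and its Fndc5 (132 CPM) was inside the range of the others. Of the 6m mice in the second run, replicate 2 had 7.09 CPM of Metrnl, and the next highest had 4.68 CPM. The first-run library of the same mouse had 5.79 CPM, the highest of its group as well, and its fibroblast sums in the runs, 4179 and 4270 CPM, were also the highest at 6m.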

How the results depend on the processing

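At 28m 1 of the 6 members was called, and 2 with DESeq2, 2 with limma-voom and 2 with the dispersion from all libraries, in each of which Aplnr joined Ostn. Without 1 library at a time the count was 1 to 2. At 24m the count of 1 became 0 with the length and GC trend removed, and was 0 to 1 without 1 library at a time. The cause was not tested. Ostn at 28m passed the test in all 9 other settings, with log2 fold changes from 0.62 to 1.31, and in all 16 fits that left out a library, from 1.11 to 1.36. The ratio to endothelial markers, called in neither gene, ranged without 1 library from 0.81 to 1.23 for Apln at 28m, from -1.12 to -0.67 for Aplnr at 28m and from -0.80 to -0.50 for Aplnr at 24m, and passed after adjustment in 2 of 15, 2 of 15 and 3 of 14 such fits. Over all genes, the 6140 calls at 28m were 2981 against the young libraries of the first run, and 4820 with those without replicate 4, an alternative chosen after seeing the data. The 11 calls at 24m were 215 with DESeq2, 152 with the dispersion from all libraries, 46 against the young libraries of the second run and 4 with at least 10 counts in every library. Without 1 library they were 30 (24m replicate 4), 4 (6m replicate 5 or 6) or 5 (6m replicate 2). With the mouse as a replicate block, the comparison of the 6m libraries and that of the 2 age effects each gave 0 calls, as without it. Apln was measured with 17 to 286 counts and Bdnf with 22 to 100; between the 2 libraries of a 6m mouse their log2 levels differed with an SD of 0.26 and 0.35 over the 7 mice.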

Other observations

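Other factors that muscle is known to release were examined as a list of 25 genes, of which 19 were tested at 28m. Of these 4 rose and 4 fell, with a median log2 fold change of -0.15, beside 24.3% of all genes tested that rose and 22.9% that fell. Gdnf, the glial cell line-derived neurotrophic factor that acts on motor neurons, had 0.36 to 1.39 CPM at 6m in the second run and 1.16 to 4.63 CPM at 28m, and 7 of 8 old mice were above all young ones. It rose by 1.497 ± 0.28 (SE) on the log2 scale with an adjusted p of 0.00115, and removal of the length and GC trend left it at 1.48. At 24m its log2 fold change was 1.38 ± 0.34 (SE) with an adjusted p of 0.166, although all 7 old mice lay above all 7 young ones. Fst, the activin and myostatin antagonist follistatin, rose by 0.91 with an adjusted p of 0.0206, which was 0.0517 against the first-run libraries of the young mice.

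Among those that fell at 28m, Vegfa, the vascular endothelial growth factor, had 291 to 420 CPM at 6m and 177 to 319 CPM at 28m, and fell by 0.53 ± 0.12 (SE) with an adjusted p of 0.00278. Gdf11, a relative of myostatin, was below all young mice in all 8 old mice, with 5.05 to 7.81 CPM at 6m and 0.52 to 4.59 CPM at 28m, and fell by 1.09 ± 0.32 (SE) with an adjusted p of 0.0109, which was 0.0551 against the first-run young libraries. Igf1 fell by 0.89 with an adjusted p of 0.0235 and Cxcl12 by 0.40 with an adjusted p of 0.00278; with the length and GC trend removed their values were -0.52 (adjusted p 0.209; 0.052 against the first-run young libraries) and -0.03 (adjusted p 0.88). None of these passed the test at 24m.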
